A study of Mus musculus with 278 samples.

Results

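A set of surface-antigen genes was followed through single mammary epithelial cells of the mouse. They were the sorting antigens Epcam, Cd24a, Cd44, Cd9, Cd200 and Thy1, and the Ly6 family genes Ly6a, Ly6d, Ly6e and Ly6c1, that is, 10 of the 27179 genes counted and of the 25170 genes kept after mitochondrial, ribosomal protein and unnamed genes were removed. They were chosen by name, for their use as surface markers in this tissue or for belonging to the same gene family as such a marker, and not by a measured value. All 10 were counted, and all 10 reached 1 CPM (a gene's reads scaled to an equal total for every cell or set of cells) in 3 or more retained cells, from 14 cells for Thy1 to 218 cells for Cd9 and for Ly6e.

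The cells came from mammary glands of FVB/NJ mice. Adult glands had been separated by flow cytometry into a basal and a luminal sort, and pregnant mice, which the study places at mid-pregnancy, had given total epithelium. The study's gate removed blood, endothelial and red cells by CD45, CD31 and TER119, kept CD24-positive cells and set basal from luminal cells by high or low CD29. Cells were captured on the Fluidigm C1, an instrument that isolates single cells in microfluidic chambers, so each library was 1 cell, and cells of a group came from more than 1 mouse, with no label to tie a cell to an animal. Each group was therefore treated as 1 sample, with no test between groups, and every interval below covers counting error only, since amplified reads without molecular identifiers are not independent molecules.

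EpCAM and CD24 are adhesion molecules of epithelia that serve as general markers of the mammary epithelium, CD44 is the receptor for hyaluronan, CD9 is a tetraspanin that organises other membrane proteins, CD200 is a ligand that restrains myeloid cells, and Thy-1 is a lipid-anchored protein best known from T cells and fibroblasts. The Ly6 proteins are small, lipid-anchored and built on a cysteine-rich fold, and many of their genes lie side by side. Ly6a encodes Sca-1, a classical marker of blood stem cells that in the mammary gland is found on mature luminal cells and is also strong on endothelium and fibroblasts. CD29, encoded by Itgb1, is the integrin beta subunit used to gate basal cells, and it was carried along as a gene of the gate.

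The Ly6 members are neighbours on mouse chromosome 15, which matters for how their reads were assigned. In GRCm38.p6, the build of the mm10 genome to which the authors mapped the reads, Ly6d lies at chr15:74762056-74763567, Ly6e at chr15:74955025-74959904, Ly6a at chr15:74994877-74998031 and Ly6c1 at chr15:75044018-75048920. The other members are scattered, with Epcam at chr17:87635979-87651127, Cd24a at chr10:43579169-43584265, Cd44 at chr2:102811141-102901669, Cd9 at chr6:125460266-125494760, Cd200 at chr16:45382111-45409060 and Thy1 at chr9:44043384-44048579. The start of the coding sequence and a stretch further in are printed to show how near to each other Ly6a, Ly6c1 and its close copy Ly6c2 are, and how far Ly6e is from them. Each is 75 bases of the GENCODE M21 coding sequence on the same build, 5′ to 3′ on the coding strand, and capitals mark the bases that differ from Ly6a at the same position of the printed stretch. The starts of the coding sequences span chr15:74996564-74997604 for Ly6a, chr15:75047465-75048511 for Ly6c1 and chr15:75110623-75111667 for Ly6c2, all on the minus strand, and chr15:74957808-74958273 on the plus strand for Ly6e. Coding bases 154 to 228 span chr15:74995439-74996485 for Ly6a and chr15:75045570-75047386 for Ly6c1, and every stretch crosses an exon junction.
Ly6a, coding start: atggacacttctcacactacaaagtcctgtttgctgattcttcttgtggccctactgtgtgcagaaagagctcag
Ly6c1, coding start: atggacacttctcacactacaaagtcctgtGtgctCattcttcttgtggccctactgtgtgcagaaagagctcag
Ly6c2, coding start: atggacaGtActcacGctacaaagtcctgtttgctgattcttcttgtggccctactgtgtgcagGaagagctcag
Ly6e, coding start: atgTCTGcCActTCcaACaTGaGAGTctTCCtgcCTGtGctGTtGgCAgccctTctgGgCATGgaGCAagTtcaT
Ly6a, inner stretch: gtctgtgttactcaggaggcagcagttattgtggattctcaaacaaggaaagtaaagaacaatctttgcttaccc
Ly6c1, inner stretch: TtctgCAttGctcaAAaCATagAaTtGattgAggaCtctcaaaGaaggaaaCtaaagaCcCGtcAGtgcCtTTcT

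At the coding start, Ly6c1 differed from Ly6a at 2 of 75 bases and Ly6c2 at 4, whereas Ly6e differed at 39. In the inner stretch, the most different one between the pair, Ly6c1 differed from Ly6a at 25 of 75 bases, and Ly6c2 was letter for letter the same as Ly6c1 there. Over the whole aligned coding sequence, Ly6a and Ly6c1 were identical at 83.8% of 396 bases, with a longest identical run of 48 bases, and Ly6c1 and Ly6c2 were identical at 97.7%, with a longest run of 188. Of all 75-base windows of its annotated transcripts, Ly6a shared 83 of 1311 (6.33%) with another gene, mostly with Ly6c1 and also with Ly6i, and Ly6c1 shared 336 of 1764 (19.0%), mostly with Ly6c2. Ly6d and Ly6e shared none, and their longest identical run with any of 35 relatives was 15 bases (with Lypd2) and 13 bases (with Gml). Among the other antigens, Cd24a shared 27 of 1960 windows with Gm6212 and Cd9 shared 144 of 1154 with Gm26728, and Epcam, Cd44, Cd200 and Thy1 shared none. For this sequencer the study's methods give paired reads of 75 bases, so a window is as long as 1 read of a pair. How many Ly6a and Ly6c1 counts were exchanged was not measured, and counts of both genes are given with that uncertainty. Ly6c2 itself was low, at 1.65 CPM (95% interval 1.18 to 2.24) in adult luminal cells and 1.29 CPM (95% interval 0.872 to 1.85) in pregnancy cells.

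Retained were cells with 50000 or more reads in kept genes: 85 of 112 adult basal cells (67280 to 1291709 reads), 41 of 43 adult luminal cells (173527 to 1007602 reads) and 96 of 123 pregnancy cells (54047 to 790608 reads). Shares of cells with a read were taken after every cell had been thinned to 50000 reads. Genes foreign to the tissue were found in at most 2.44% of adult luminal and 4.17% of pregnancy cells. Of 10 basal keratin and muscle markers a median of 9 was detected per adult basal cell, and of 10 luminal markers a median of 9 per adult luminal cell. Some cells also carried markers of other cell types, with 4 or more of 8 endothelial, 4 of 7 immune, 4 of 7 fibroblast or 3 of 6 pericyte genes. These were 1 adult basal, 6 adult luminal and 21 pregnancy cells, and 17 of the 21 also had 5 or more of the 10 basal or of the 10 luminal markers. Such cells are called stroma-marked below, and results that rest on them are given with and without them. Of the antigens the gate should remove, Ptprc (CD45) was detected in 2, 0 and 3 adult basal, adult luminal and pregnancy cells. Pecam1 (CD31) was detected in 1 adult basal and 2 adult luminal cells but in 17 of 96 cells (17.7%, 95% interval 10.7 to 26.8%) from pregnancy.

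Per kilobase of gene length, Cd9 and Ly6e stood highest among the 10 genes in every group, at 1270.7 and 781 CPM per kb in adult basal, 2030.3 and 1830.1 in adult luminal and 818 and 755 in pregnancy cells. The interquartile ranges over cells of this pair overlapped in each group, and that of Ly6e lay above that of the next gene in the order. In pregnancy cells that next gene was Ly6a, and the lower quartile of Ly6e (458 CPM per kb) lay below the upper quartile of Epcam (466). Without stroma-marked cells Ly6e overlapped the next gene, Epcam, in pregnancy. The third place went to Epcam in adult basal cells (268 CPM per kb) and to Ly6a in adult luminal (1064 CPM per kb) and pregnancy cells (439.8 CPM per kb). Without stroma-marked cells Ly6a came behind Cd9, Ly6e and Epcam in both, at 563 and 109 CPM per kb, and the third place went to Ly6d (844 CPM per kb) in adult luminal and to Epcam (353 CPM per kb) in pregnancy cells. Further down the order over all retained cells, neighbours overlapped in their interquartile ranges, with 1 exception, Cd24a above Ly6c1 in pregnancy cells. Thy1 came last or joint last everywhere, with 0 reads in adult basal cells, 4 reads in adult luminal cells and 85 reads in pregnancy cells.

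**Figure D1:**
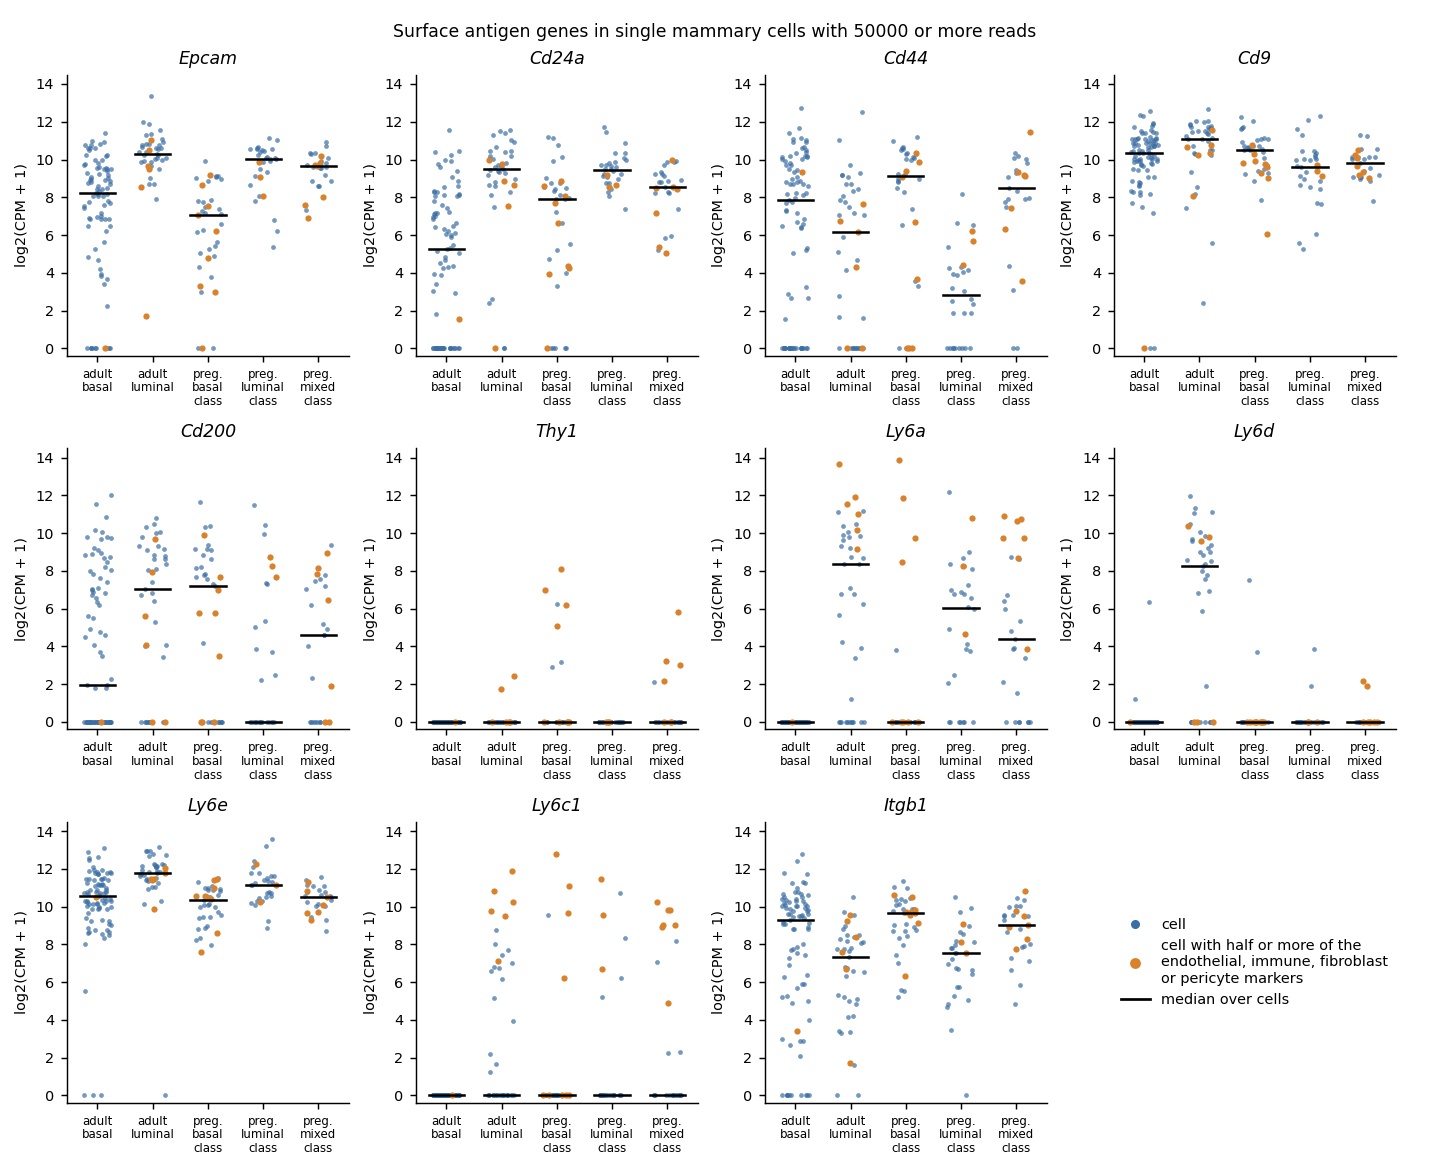
Level of each gene in every retained cell as log2(CPM + 1), by adult sort and by class of pregnancy cell, with black bars for medians over cells and orange points for stroma-marked cells. Ly6a, Ly6c1 and Thy1 had no read in any of the 85 adult basal cells, and the highest Ly6a and Ly6c1 points of the pregnancy basal class are orange.

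The first comparison asked how far the transcripts of these antigens followed the adult sort. Relative to adult luminal cells, adult basal cells had less Epcam, Cd24a, Ly6e and Ly6d transcript and no read of Ly6a or Ly6c1, and they had more Cd44. Of the 10 genes 1 was at least 2-fold higher in basal cells and 6 were at least 2-fold lower. Among all 14348 genes compared, 24% were as much higher and 36% as much lower. The median log2 ratio was -1.27 over the 10 genes, with the bounds of genes without a basal read taken as values, and -0.33 over all genes.

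Epcam, whose protein was not in the gate, and Cd24a, whose protein was, were present in both sorts at unequal levels. Epcam had a lowest, median and highest level of 0, 298 and 2740.1 CPM over adult basal cells and of 2.30, 1248 and 10555 CPM over adult luminal cells. Summed over cells it reached 552 CPM (95% interval 544 to 559) and 1375 CPM (95% interval 1361 to 1389.9), a log2 ratio of -1.32 (95% interval -1.34 to -1.29) or 2.49-fold less in basal cells. The ranges of single cells overlapped, but in 82.9% of the 3485 pairs of 1 basal and 1 luminal cell the luminal cell was the higher. Cd24a ranged over 0, 37.7 and 2995 CPM in basal and 0, 723 and 3040.2 CPM in luminal cells, with a log2 ratio of -1.92 (95% interval -1.96 to -1.88), so basal cells had 3.78-fold less. Although CD24 protein was part of the gate for both sorts, a Cd24a read was found in 49 of 85 cells (57.6%, 95% interval 46.4 to 68.3%) of the adult basal sort and 36 of 41 cells (87.8%, 95% interval 73.8 to 95.9%) of the luminal sort, and without thinning in 58 and 38 cells. A cell with no read is not shown to lack the transcript.

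Itgb1, the gene behind the CD29 gate, went the other way. Its lowest, median and highest levels were 0, 633 and 7169.9 CPM in basal and 0, 159 and 1454 CPM in luminal cells, and basal cells had 3.42-fold more in sum (log2 ratio 1.77 (95% interval 1.74 to 1.81)). The separation was incomplete in single cells, since the luminal cell was the higher in 30.8% of pairs, and 70 of 85 basal and 35 of 41 luminal cells had a read. Cd44 was the only one of the 10 genes more than 2-fold higher in basal cells, at 647 against 223 CPM in sum (log2 ratio 1.54 (95% interval 1.49 to 1.58)). Single-cell levels of Cd44 had a lowest, median and highest of 0, 235 and 6824 CPM in basal and 0, 70.0 and 5811 CPM in luminal cells, and the shares of cells with a read were close, 67.1% and 61.0%. When every cell was given the same weight (mean of CPM per cell), the log2 ratio of Cd44 was 0.79, under 2-fold. In 53.8% of cell pairs the basal cell had more Cd44 and in 32.8% the luminal cell.

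Cd9 and Cd200 differed less than 2-fold between the sorts. Cd9 was found in 82 of 85 basal and 40 of 41 luminal cells, with single-cell levels of 0, 1301 and 6082 CPM and 4.32, 2190.4 and 6607 CPM (lowest, median and highest) and a log2 ratio of -0.68 (95% interval -0.69 to -0.66). Cd200 was patchy in both, with a lowest, median and highest of 0, 2.90 and 4156 CPM in basal and 0, 132 and 1811 CPM in luminal cells and a log2 ratio of -0.63 (95% interval -0.67 to -0.59). A Cd200 read was found in 38 of 85 cells (44.7%, 95% interval 33.9 to 55.9%) of the basal and 28 of 41 cells (68.3%, 95% interval 51.9 to 81.9%) of the luminal sort, so the transcript was spread over both lineages. Thy1 had no read in the basal sort, which allows a share of cells with a read of up to 3.53%, and 4 reads in 2 of the 41 luminal cells, too few for a ratio to be informative.

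Ly6a, Ly6c1 and Ly6d had the largest ratios between the adult sorts among the 10 genes. Ly6a, encoding Sca-1, had no read in any adult basal cell, whereas adult luminal cells ran from 0 through a median of 325 to 12736 CPM, with a read in 27 of 41 cells (65.9%, 95% interval 49.4 to 79.9%). Set against a floor of 3 reads over the basal sort, the sum was at least 10502-fold lower in basal cells (log2 ratio at most -13.36). Ly6c1 also had no basal read and a luminal lowest, median and highest of 0, 0 and 3786 CPM, with a read in 16 of 41 cells (39.0%, 95% interval 24.2 to 55.5%), and was at least 2866-fold lower in basal cells. For both genes, 0 of 85 cells allows a share of up to 3.53%. The 6 stroma-marked cells held 55.1% of the Ly6a and 78.7% of the Ly6c1 reads of the adult luminal sort, and without them the bounds were 5479.5-fold and 709.7-fold.

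Ly6d, a marker best known from B-lymphoid progenitors and squamous epithelia, had a read in as many luminal cells as Ly6a. Its lowest, median and highest levels were 0, 305 and 3961 CPM over luminal cells, with a read in 27 of 41, and 0, 0 and 82.0 CPM over basal cells. In sum it was 593-fold lower in basal cells (log2 ratio -9.21 (95% interval -9.74 to -8.73)), and basal cell 11 alone held 97.1% of the 34 basal reads. Ly6e, in contrast, was in nearly every cell of both sorts, 82 of 85 and 40 of 41. Its single-cell levels were 0, 1535 and 8767 CPM in basal and 0, 3577 and 9287 CPM in luminal cells (lowest, median and highest), and its sum was 2.34-fold lower in basal cells (log2 ratio -1.23 (95% interval -1.24 to -1.21)). With edgeR's TMM scaling, which shifted every log2 ratio of this comparison by 0.30, the Ly6e ratio was -0.93, under 2-fold.

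**Figure D2:**
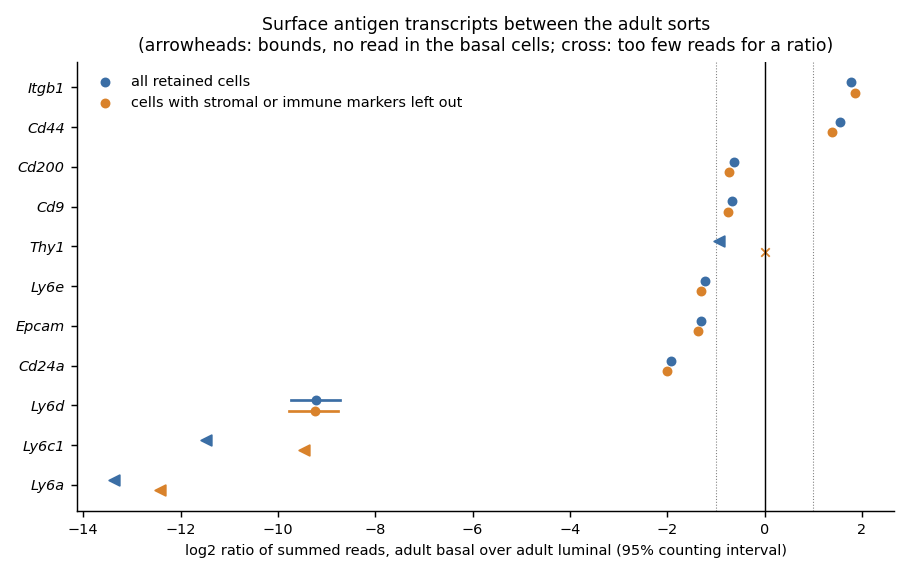
Log2 ratio of summed reads between the adult basal and adult luminal sorts for the 10 genes and Itgb1, with 95% counting intervals (mostly narrower than the points), for all retained cells and with stroma-marked cells left out. Cd44 at 1.54 and Itgb1 at 1.77 lie right of zero, and Ly6d, Ly6c1 and Ly6a lie beyond -9 on the left.

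The luminal sort holds both mature, hormone-sensing cells and progenitors of the secretory lineage, so the 41 adult luminal cells were laid out by how many of 12 mature luminal markers (such as Prlr, Esr1 and Pgr) and 12 luminal progenitor markers (such as Elf5, Kit and Csn3) they had. In all, 16 cells had at least 3 more mature markers, 10 had at least 3 more progenitor markers and 15 lay between. The 10 included 2 stroma-marked cells and the low-complexity luminal cells 15 and 17. Those had 976 and 1023 genes in thinned reads, against a median of 3454 for the sort, and fail the study's minimum of genes per cell. Neither had a read of Itgb1, Cd200, Ly6a or Ly6d, so both lower the progenitor-marked shares. Ly6d, Ly6a and Cd200 were seen mainly outside the progenitor-marked cells. Ly6d had a read in 12 of 16 mature-marked cells, 14 of 15 between and 1 of 10 progenitor-marked cells, where luminal cell 13 held all 2500 reads, so that the summed levels (565, 568 and 548 CPM) hide the difference in shares. Ly6a had a read in 13, 12 and 2 cells, and luminal cell 11 held 65.7% of the progenitor-marked reads. Cd200 had a read in 13, 13 and 2 cells, with 90.6% of the progenitor-marked reads in cell 13, and its summed level was 4.46-fold higher in mature-marked cells (log2 ratio 2.16 (95% interval 1.99 to 2.33)).

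Itgb1 and Cd9 also declined towards the progenitor end and Cd44 did the reverse. Itgb1 was at 435, 182 and 81.2 CPM in mature-marked, between and progenitor-marked cells, and Cd9 at 3141, 2160.2 and 1311 CPM. Cd44 was at 111, 157 and 622 CPM, 5.61-fold lower in mature-marked than in progenitor-marked cells, with a read in 7 of 16, 10 of 15 and 8 of 10 cells. Luminal cell 17 held 39.5% of the progenitor-marked Cd44 reads, and without it the ratio was 3.54-fold. Itgb1 was 5.36-fold higher in mature-marked than in progenitor-marked cells, and 10.2-fold without stroma-marked cells. Epcam, Cd24a and Ly6e differed by less than 2-fold between the ends of this range, with log2 ratios of -0.54, -0.22 and 0.35. Ly6c1, at a log2 ratio of -0.86, was also under 2-fold, but all 708 progenitor-marked reads lay in 2 stroma-marked cells. Without stroma-marked cells there were 577 Ly6c1 reads in mature-marked and 0 in progenitor-marked cells, at least 55.2-fold more in the mature-marked. Thy1 had no read at either end. Of 11847 genes, 41.4% were at least 2-fold higher in mature-marked cells and 24.2% at least 2-fold lower.

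**Figure D3:**
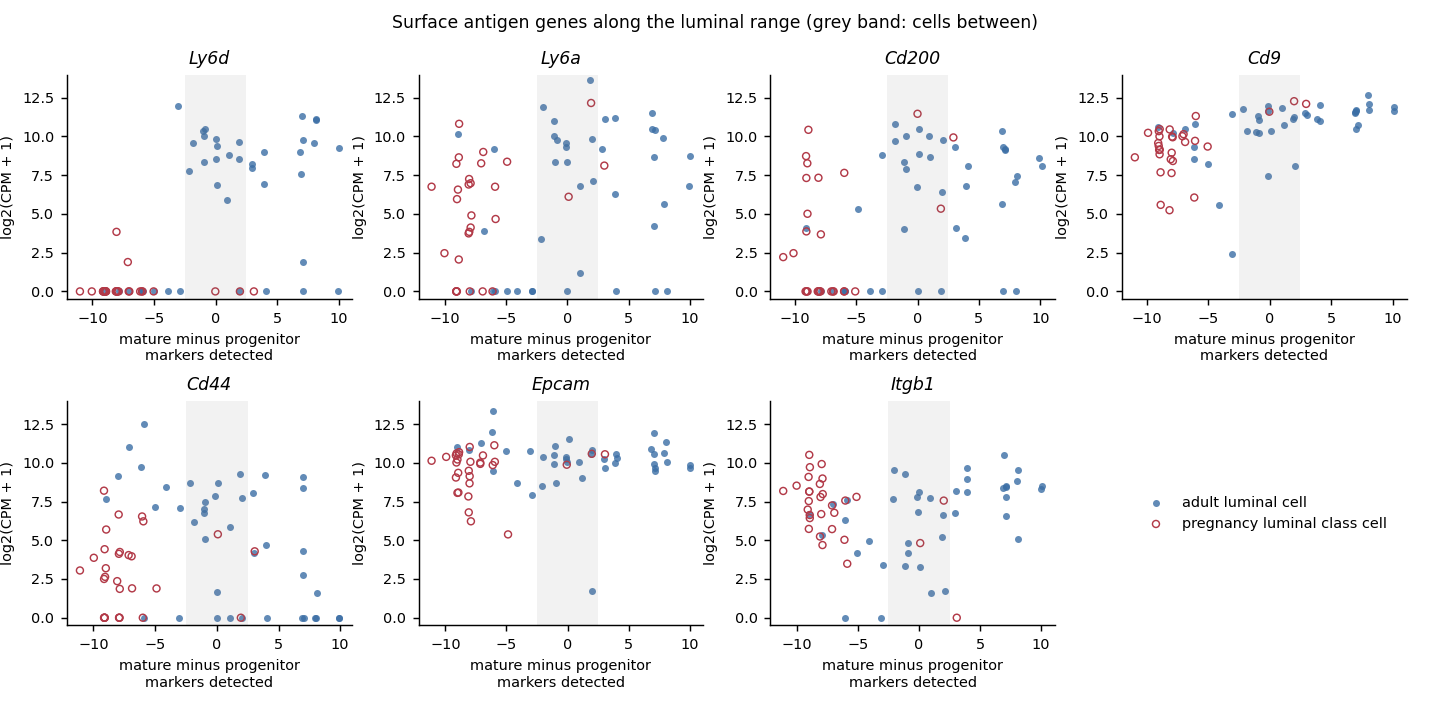
Level of 6 of the genes and of Itgb1 in single cells, as log2(CPM + 1), against the number of mature luminal markers minus the number of luminal progenitor markers detected in the cell, for 41 adult luminal cells (filled) and 30 pregnancy cells of the luminal class (open). The grey band holds cells with a difference under 3, and among adult cells left of it 1 of 10 had Ly6d, against 12 of 16 to its right.

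Pregnancy cells carry no sort label, so they were placed by the share of the study's basal and luminal lineage genes they had, with the 10 antigens and the milk genes left out. A cell had to reach 18.7% of 191 basal or 17.3% of 185 luminal genes, the 10th percentile of the matching adult sort, which gave 37 cells of a basal class, 30 of a luminal class, 27 mixed cells that passed both thresholds and 2 that passed neither. In all, 8 cells lay within 2 percentage points of a threshold, and the class sizes moved with the rule: thresholds at the 25th percentile gave 49 basal, 19 luminal, 5 mixed and 23 neither. The study's minimums of reads and genes per cell kept 39 adult luminal cells and all 85 adult basal and 96 pregnancy cells. The classes then held 54 basal, 20 luminal, 12 mixed and 10 neither. Left out were adult luminal cells 15 and 17, the low-complexity cells named above, with 14.1% and 16.2% of the luminal list. Both lay under the main luminal threshold, which is lower with them than without them, so the main classes rested in part on these cells. Stroma-marked cells made up 9 of the basal class, 3 of the luminal class and 7 of the mixed class. Of the luminal class, 27 cells were progenitor-marked, 2 lay between and 1 was mature-marked. Over all classes, 84 of the 96 pregnancy cells were progenitor-marked, and the 12 markers include milk genes such as Csn3 and Lalba. The basal class had a median of 6 of these markers, against 1 in the adult basal sort. In pregnancy the label therefore did not single out luminal progenitors.

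Between the pregnancy classes, the antigens kept the order they had between the adult sorts for Epcam, Cd24a, Cd44 and Itgb1. The basal class had 4.33-fold less Epcam (log2 ratio -2.11 (95% interval -2.21 to -2.02)) and 2.18-fold less Cd24a (log2 ratio -1.12 (95% interval -1.20 to -1.05)) than the luminal class, and 2.82-fold more Itgb1. Cd44 was 37.2-fold higher in the basal class (log2 ratio 5.22 (95% interval 5.00 to 5.44)), with 30 of 37 cells (81.1%, 95% interval 64.8 to 92.0%) against 10 of 30 cells (33.3%, 95% interval 17.3 to 52.8%). Without thinning, a Cd44 read was found in 32 of 37 and 21 of 30 cells. Cd200 was 3.43-fold higher in the pregnancy basal class, whereas in the adult it was 1.55-fold lower in the basal sort. Adult luminal levels were 301 CPM in mature-marked and 67.6 CPM in progenitor-marked cells, and the adult basal level of 255 CPM lay between them. The pregnancy luminal class held 1 mature-marked cell, so this change of sign cannot be told apart from the mix of luminal cells. Cd9, with a log2 ratio of 0.96, and Ly6e, with -0.68, stayed under 2-fold. Without stroma-marked cells the Cd24a ratio was -0.86, under 2-fold, that of Cd9 was 1.17, past 2-fold, and that of Cd200 was 2.43. Of 13536 genes, 45.5% were at least 2-fold higher in the basal class and 18.7% at least 2-fold lower. The median log2 ratio over all genes was 0.79, so the Cd9 ratio lay near the general shift. Milk genes took up 1.58% of the reads of the basal class and 35.9% of those of the luminal class. TMM scaling was not run for this comparison. The mixed class lay between the other two for Epcam (785 CPM), Cd24a (427 CPM), Cd44 (452 CPM) and Itgb1 (586 CPM).

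The other Ly6 genes and Thy1 had higher sums in the pregnancy basal class than in the luminal class, where in the adult Ly6a, Ly6c1 and Ly6d had been lower in the basal sort. The log2 ratio was 1.91 (95% interval 1.83 to 1.99) for Ly6a, 1.63 (95% interval 1.52 to 1.73) for Ly6c1 and 4.55 (95% interval 2.91 to 6.89) for Ly6d, the last on 43 against 3 reads. These sums rested on few cells. Without stroma-marked cells the Ly6a ratio turned to -7.64 (95% interval -9.92 to -6.09), on 3 against 1254 reads, and that of Ly6c1 to -0.24 (95% interval -0.62 to 0.13).

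The next comparison asked what differed between the basal class of pregnancy and the adult basal sort. Epcam was lower in pregnancy, the levels of Cd24a, Cd44, Cd9, Cd200 and Ly6e differed by less than 2-fold, and Ly6a, Ly6c1, Ly6d and Thy1 were higher through few cells. Of the 10 genes 4 were at least 2-fold higher and 1 was at least 2-fold lower, against 29.4% higher and 22.6% lower of 13638 genes. The median log2 ratio was 0.40 over the 10 genes, bounds taken as values, and 0.05 over all genes.

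Epcam had a lowest, median and highest of 0, 132 and 955 CPM in the basal class, with the median and the highest below those of the adult basal sort. Its summed level was 2.83-fold lower (log2 ratio -1.50 (95% interval -1.59 to -1.41)), while the share of cells with a read was 32 of 37 cells (86.5%, 95% interval 71.2 to 95.5%) against 71 of 85 cells (83.5%, 95% interval 73.9 to 90.7%). This ratio depended on which pregnancy cells were called basal, and with thresholds at the 25th percentile it was -0.47 and with the study's minimums of reads and genes per cell -0.52, both under 2-fold. The summed Cd24a level was 233 CPM in the adult and 336 CPM in the basal class (log2 ratio 0.53 (95% interval 0.46 to 0.60)), and a read was found in 30 of 37 cells (81.1%, 95% interval 64.8 to 92.0%) against 49 of 85 cells (57.6%, 95% interval 46.4 to 68.3%). Cd44 (0.25), Cd9 (-0.04), Cd200 (0.28), Ly6e (-0.39) and Itgb1 (-0.19) had log2 ratios near zero on the same scale.

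The Ly6 genes with few or no reads in the adult basal sort had reads in a few pregnancy cells of the basal class. Ly6a had a read in 4 of 37 cells and a median of 0, and a single cell, pregnancy cell 5, reached 14894 CPM and held 81.9% of the 4090 reads. The sum was at least 9250.2-fold higher than in the adult basal sort, but that cell had all 7 fibroblast markers, and without the 9 stroma-marked cells only 3 Ly6a reads remained in the class, against 0 in the adult, too few for a ratio. Ly6c1 had a read in 5 of 37 cells and at least 4865-fold more in sum, with 74.6% of 2151 reads in cell 5. Without the stroma-marked cells, 84 Ly6c1 reads remained, at least 262-fold above the adult sort, and all of them lay in 1 cell, pregnancy cell 29, with 3 of the 8 endothelial markers and 1 immune marker. Ly6d had 43 reads in 2 cells, 95.3% of them in pregnancy cell 9, against 34 reads in the adult sort (log2 ratio 3.10 (95% interval 2.42 to 3.79)).

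Thy1, a fibroblast and lymphocyte antigen, was also a matter of few cells. Its 66 reads in the basal class came from 7 cells, and 6 had a read after thinning. The sum was at least 149-fold higher than in the adult basal sort, and 12 reads were left without the stroma-marked cells. Over all pregnancy cells, stroma-marked ones held 84.7% of the 85 Thy1 reads. By the numbers in their titles, 84 of these reads came from cells numbered up to 55 and 1 from cells above, a division known from earlier results of these data and not from the labels. All 11 fibroblast-marked pregnancy cells were numbered up to 55, as were 46 of the 48 Ly6d reads, and the summed levels of Ly6a and Ly6c1 were 4.54-fold and 2.91-fold higher there. Taken apart in this way, the Epcam ratio of the basal class was -1.38 up to number 55 and -1.71 above, and that of Cd24a was 0.02 and 1.06.

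In the luminal class, the transcripts of these antigens were lower than in adult luminal cells or differed by less than 2-fold. Cd44, Cd9, Cd200, Ly6a and Ly6d were at least 2-fold lower, that is, 5 of the 9 genes with a ratio, and none was as much higher, since Thy1 had 0 reads against 4. Among 13624 genes, 13.4% were at least 2-fold higher and 49.7% at least 2-fold lower, so a large part of all genes lay on the same side. The median log2 ratio was -1.68 over the 9 genes and -0.99 over all genes. Milk genes took up 35.9% of the reads of this class and 1.25% of those of adult luminal cells, and TMM scaling shifted every log2 ratio by 0.87.

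Cd44 gave a large difference. It ran from 0 through a median of 70.0 to 5811 CPM in adult luminal cells and from 0 through 6.25 to 293 CPM in the luminal class. The summed level was 10.8-fold lower (log2 ratio -3.43 (95% interval -3.65 to -3.21)), and the share of cells with a read was 10 of 30 cells (33.3%, 95% interval 17.3 to 52.8%) against 25 of 41 cells (61.0%, 95% interval 44.5 to 75.8%). Without thinning, a Cd44 read was found in 21 of 30 and 29 of 41 cells, so the shares were then close. The difference in summed level stayed past 2-fold under every alternative tried, including TMM scaling. Set beside the adult progenitor-marked cells, the 27 progenitor-marked pregnancy cells had 29.9-fold less Cd44 (log2 ratio -4.90 (95% interval -5.13 to -4.68)). The same ratio was 50.9-fold without stroma-marked cells and 18.9-fold without adult luminal cell 17. The 2 sets were not like for like, since milk genes took up 36.8% of the reads of these pregnancy cells and 2.90% of those of the adult ones. The progenitor label also covered 84 of all 96 pregnancy cells, whatever their class.

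Ly6d had few reads in pregnancy. Only 3 reads in 2 cells were found in the luminal class, against 14009 reads in the adult, a log2 ratio of -10.66 (95% interval -12.94 to -9.12), and in all 96 pregnancy cells there were 48 reads, 85.4% of them in cell 9. Most of the adult luminal cells with Ly6d were mature-marked or lay between, kinds of which the luminal class of pregnancy held 1 and 2 cells, none with a Ly6d read. Among progenitor-marked cells, a Ly6d read was found in 1 of 27 pregnancy cells and 1 of 10 adult cells. Ly6d is itself on the study's luminal list and was left out of it, with the other antigens, when classes were set. In sums over a class, fewer cells of a type and less transcript per cell cannot be told apart.

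Cd200, Cd9 and Ly6a showed the same dependence on which luminal cells were compared. Against all adult luminal cells, the luminal class had 4.39-fold less Cd200 (log2 ratio -2.13 (95% interval -2.24 to -2.03)), 3.20-fold less Cd9 (log2 ratio -1.68 (95% interval -1.71 to -1.64)) and 4.26-fold less Ly6a (log2 ratio -2.09 (95% interval -2.16 to -2.02)). Single cells of the class had a lowest, median and highest of 0, 0 and 2829.8 CPM for Cd200, 36.8, 782 and 4970.3 CPM for Cd9 and 0, 64.6 and 4585 CPM for Ly6a. Between progenitor-marked cells alone, the log2 ratio was -0.15 (95% interval -0.35 to 0.06) for Cd200 and -0.99 (95% interval -1.04 to -0.93) for Cd9, neither past 2-fold. Without stroma-marked cells Cd200 was 2.81-fold lower (log2 ratio -1.49 (95% interval -1.73 to -1.25)) and Cd9 stayed under 2-fold (-0.75), and without luminal cell 17 Cd9 was at -1.03, past 2-fold. In that comparison 32.4% of 12004 genes were at least 2-fold higher in pregnancy and 37.4% at least 2-fold lower. Cd200 was under 2-fold with equal weight per cell (-0.68), and Cd9 was under 2-fold with TMM scaling (-0.80).

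For Ly6a, the summed ratio and the share of cells pointed in different directions among progenitor-marked cells. A read was found in 18 of 27 cells (66.7%, 95% interval 46.0 to 83.5%) of the pregnancy set against 2 of 10 cells (20%, 95% interval 2.52 to 55.6%) of the adult set, whereas the summed level was 155 against 312 CPM (log2 ratio -1.01 (95% interval -1.12 to -0.90)). Nearly all of the adult reads lay in 2 stroma-marked cells. Without stroma-marked cells, 8 adult cells had 5 Ly6a reads and 24 pregnancy cells had 770, a log2 ratio of 5.88 (95% interval 4.65 to 7.50). The direction of the summed Ly6a difference among progenitor-marked cells thus turned when 2 adult and 3 pregnancy cells were left out.

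Epcam, Cd24a, Ly6e and Ly6c1 were within 2-fold in the luminal class. Epcam had a lowest, median and highest of 40.6, 1034 and 2243 CPM and a log2 ratio of -0.71 (95% interval -0.74 to -0.67), and it was 2.36-fold lower among progenitor-marked cells (log2 ratio -1.24 (95% interval -1.28 to -1.19)), or 1.90-fold without luminal cell 17. Cd24a, at 168, 694 and 3341 CPM, had a log2 ratio of -0.26 (95% interval -0.30 to -0.22) and was found in 30 of 30 cells. Ly6e, at 468, 2249 and 12460.4 CPM, had a log2 ratio of -0.94 (95% interval -0.96 to -0.91), and without stroma-marked cells of -1.06, just past 2-fold. Ly6c1 had a read in 7 of 30 cells, with 61.4% of its reads in pregnancy cell 68, and its log2 ratio of -0.86 became -1.20 without stroma-marked cells. Itgb1 differed little between the stages in sum (log2 ratio 0.09 (95% interval 0.02 to 0.15)) but was 3.61-fold higher among progenitor-marked cells of pregnancy, and 6.70-fold without stroma-marked cells.

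**Figure D4:**
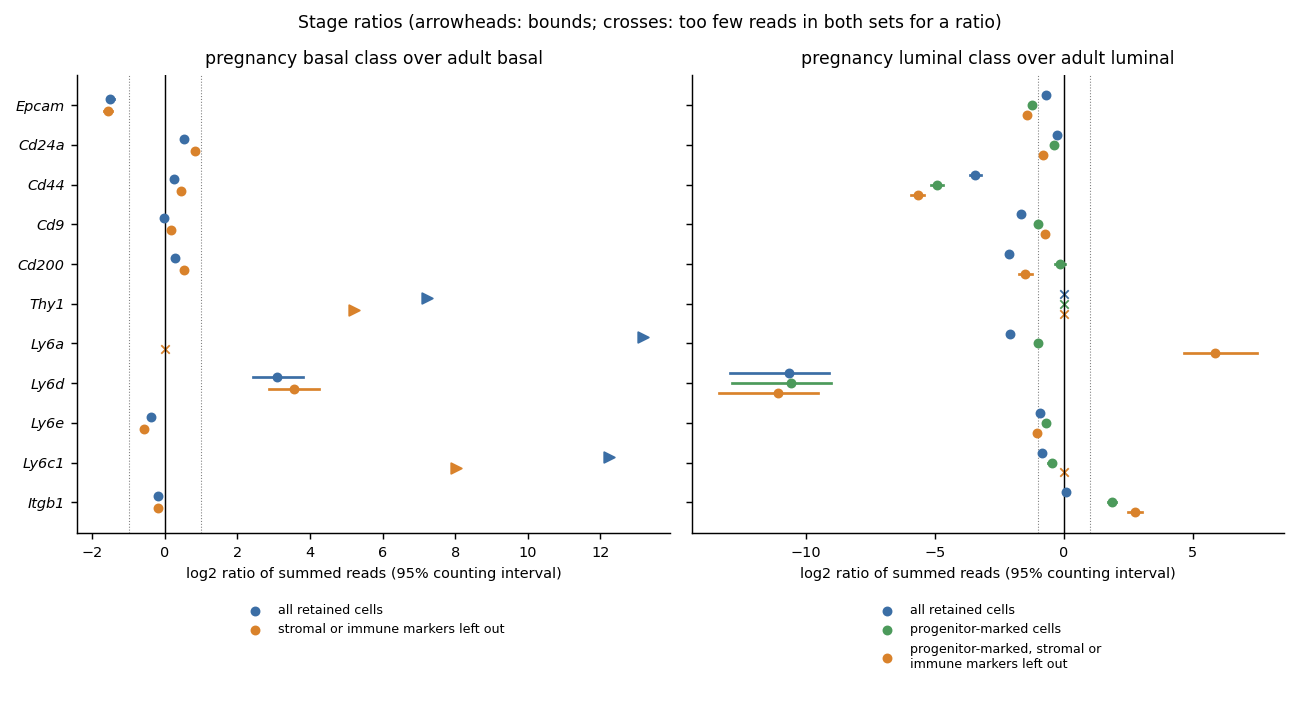
Log2 ratio of summed reads between stages for the 10 genes and Itgb1, on the left for the basal class over the adult basal sort and on the right for the luminal class over adult luminal cells, with 95% counting intervals. Cd44 lies at -3.43 on the right and at 0.25 on the left, and the Ly6a point on the right changes side, from -2.09 to 5.88, when only progenitor-marked cells without stromal or immune markers are compared.

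Since Ly6a and Ly6c1 share sequence, the pair was followed within cells. In adult luminal cells thinned to equal depth, 16 had both transcripts, 11 had Ly6a alone and none had Ly6c1 alone, and in pregnancy cells 20 had both, 22 had Ly6a alone and 2 had Ly6c1 alone. Spearman's rho of their CPM was 0.80 over the 41 adult luminal cells and 0.58 over the 96 pregnancy cells, values that describe cells sharing libraries, depth and sequence. The ratio of the pair was not constant from cell to cell. Among adult luminal cells with 50 or more Ly6a reads, the number of Ly6c1 reads per 100 Ly6a reads had a median of 4.79 and a range of 0 to 88.1 in 19 cells without stromal markers, and a median of 37.8 and a range of 23.8 to 63.4 in 6 stroma-marked cells.

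The same pattern was seen in pregnancy. There the median was 0 in 9 cells without stromal markers, 8 of which had no Ly6c1 read, and 60.2 in 13 stroma-marked cells, with a range of 7 to 252. Stroma-marked cells held 80.1% of the Ly6a and 91.3% of the Ly6c1 reads of pregnancy, although a Ly6a read was also found in 27 of the 75 other cells. The endothelial-marked cells alone, 10 in number, held 24.1% of the Ly6a and 50.8% of the Ly6c1 reads, and the 11 fibroblast-marked cells held 61.8% and 50.6%. Their part in the stage ratios was measured only by leaving them out.

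**Figure D5:**
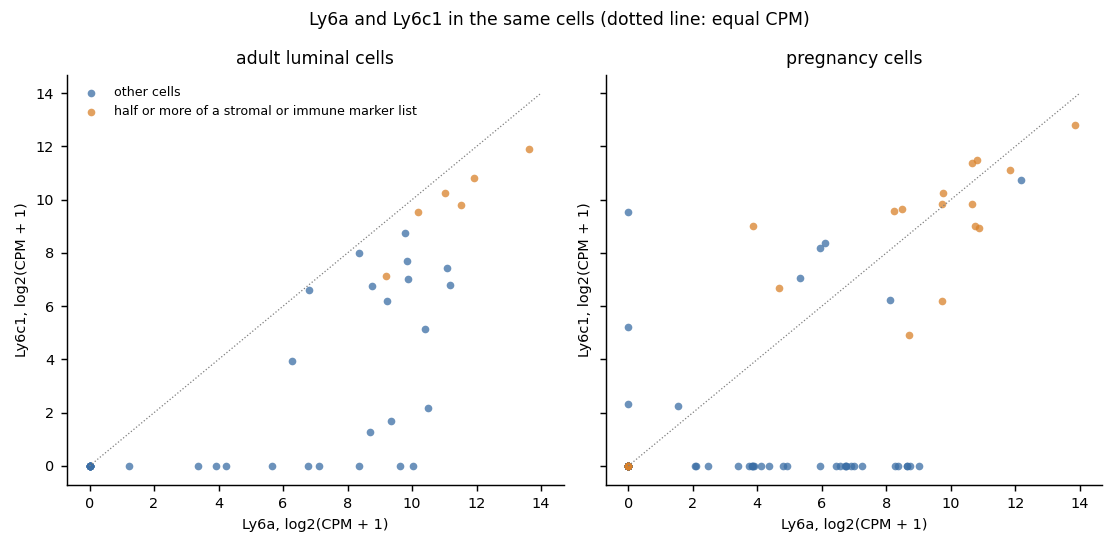
Ly6c1 against Ly6a in each cell, both as log2(CPM + 1), for 41 adult luminal cells (left) and 96 pregnancy cells (right), with orange for stroma-marked cells. The cell highest on both axes of each panel, at 12736 and 3786 CPM on the left and 14894 and 7136 CPM on the right, is orange, while other orange cells lie among the rest or, in pregnancy, at zero for both genes, and many unmarked cells have Ly6a reads but no Ly6c1 read.

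Other genes of the same kinds were counted from fixed lists. Beside the 4 members, 33 genes of the Ly6 and uPAR family were listed and 31 were in the tables. Of the 13 with a ratio between the adult sorts, 3 were at least 2-fold higher and 7 at least 2-fold lower in basal cells, where all genes gave 24% and 36%. Without stroma-marked cells these were 4 and 3 of 10, with 26.4% and 34.6% of all genes. The genes of highest level among them were Plaur, the urokinase receptor (log2 ratio 0.58), Cd59a, an inhibitor of complement (2.17), and Gpihbp1, a lipase carrier of capillary endothelium (-10.46 (95% interval -15.77 to -7.98)). Cd59a was also 3.10-fold higher in the luminal class than in adult luminal cells. Between stages, 3 of 10 of these genes were higher and 2 lower in the basal class (29.4% and 22.6% of all genes), and 3 of 12 higher and 5 lower in the luminal class (13.4% and 49.7% of all genes). Gpihbp1 had 982 reads in adult luminal cells, of which 1 was left without the stroma-marked cells.

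Of 10 further antigens used to divide mammary cells, 4 were higher and 5 lower in the adult basal sort, against 24% and 36% of all genes. Itga6, the CD49f integrin subunit, was 5.65-fold higher (log2 ratio 2.50 (95% interval 2.46 to 2.54)), Icam1, an adhesion receptor, 12.9-fold (log2 ratio 3.69), and Cd14, a receptor for bacterial lipids, 2.86-fold (log2 ratio 1.51). The Cd14 value rested on 1 stroma-marked cell, adult basal cell 19, with 99.6% of the basal reads, and without stroma-marked cells Cd14 was 83.7-fold lower in basal cells (log2 ratio -6.39 (95% interval -6.73 to -6.06)). Cd14 and Icam1 were higher in the luminal class than in adult luminal cells, by 7.53-fold and 6.76-fold, and of these 10 antigens 3 were higher and 3 lower there, against 13.4% and 49.7% of all genes. Cd14 was among the genes by which the luminal class was set. In the basal class 5 were higher and 1 was lower than in the adult sort (29.4% and 22.6% of all genes), or 4 and 2 without stroma-marked cells (25.5% and 27.7% of all genes). Among 15 partners of EpCAM, CD44, CD9 and CD200, 8 of 13 with a ratio were lower and 1 was higher in the adult basal sort (36% and 24% of all genes). Cldn7, a claudin that binds EpCAM (log2 ratio -6.18 (95% interval -6.46 to -5.92)), was the lowest of the 3 named, and the tetraspanins Cd63 (0.85) and Cd81 (-0.42) were under 2-fold. Of 14 partners with a ratio, 6 were higher and 4 lower in the basal class, and 1 was higher and 6 were lower in the luminal class, with the shares of all genes as above. Without stroma-marked cells 4 of 13 partners were higher and 7 lower in the adult basal sort, with 26.4% and 34.6% of all genes.

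Ly6a and Ly6e are induced by interferon in many cells, so 12 interferon-response genes were set beside them. In the adult basal sort 6 were at least 2-fold lower and 3 higher, against 36% and 24% of all genes. Without stroma-marked cells these were 4 and 4 of 11, with 34.6% and 26.4% of all genes. Iigp1, an immunity-related GTPase, had no basal read against 406 CPM in luminal cells, at least 4842-fold lower, Psmb8, a subunit of the immunoproteasome, was 8.80-fold lower (log2 ratio -3.14 (95% interval -3.22 to -3.06)), and Ifi27 was 2.07-fold higher. In the luminal class, 6 of 12 were lower than in adult luminal cells and none was higher, near the 49.7% of all genes that were lower (13.4% were higher). Iigp1 was at -1.90 and Psmb8 at -1.61. Without stroma-marked cells 4 were lower (51.6% of all genes) and 3 higher (14.6%). In the basal class 7 of 11 were higher than in the adult sort and none was lower, against 29.4% and 22.6% of all genes. Without stroma-marked cells 1 of 9 was higher and 3 were lower, with 25.5% and 27.7% of all genes, and the Psmb8 ratio turned from 1.04 to -1.003.

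Over all 222 retained cells, the genes whose level ran most alike were named for the 7 antigens seen in at least 25% of thinned cells, among 4273 genes, by Spearman's rho of CPM. Epcam ran most like Tmprss13 (0.57), Krt18 (0.57) and Cldn7 (0.55), and Cd24a like Rbm47 (0.59), Cldn7 (0.57) and Tmprss13 (0.56). Ly6a ran like Mal2 (0.64), Smim22 (0.62) and Cldn7 (0.60). Krt18 is a keratin of luminal cells and Cldn7 a claudin of epithelial junctions. Cd44 ran like Moxd1 (0.47), Runx1 (0.43) and Nhsl1 (0.43), Cd9 like Ptn (0.50), Capsl (0.42) and S100a6 (0.41), Cd200 like Cav2 (0.38), Fgfr2 (0.35) and Ptn (0.35), and Ly6e like Gpx3 (0.41), Tmprss13 (0.41) and Gpx1 (0.41). These correlations are across cells of 3 groups that differ in lineage and depth, and they are descriptions. Among the 7, the pair Epcam and Cd24a had a rho of 0.38, and Cd44 and Ly6a one of -0.27.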

How the data were processed

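Single-cell RNA-seq of FVB/NJ mammary cells was re-analysed from gene counts. The tables deposited by the authors, 1 per cell, hold raw counts (read pairs assigned to each Entrez gene), without normalisation or molecular identifiers. Read pairs had been mapped to mm10 with Subread (version 1.4.6 in the submitters' processing notes) and assigned with featureCounts and Rsubread's own RefSeq gene models. The series-wide table has identical counts and was left aside. Groups came from the labels. Symbols from a GRCm38.p6 gene table matched 25275 of 27179 IDs. The 1904 unnamed IDs (1.20% of reads), 15 mitochondrial genes (9.54%) and 90 cytosolic ribosomal protein genes (1.62%) were removed, and 222 of 278 cells with 50000 or more reads in the remaining genes were kept. FVB/NJ differs from the reference strain, and its variants were not examined.

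No test was run, since cells are not replicates and no animal is named. Levels are summed reads of a set of cells over their total, in CPM, with exact Poisson intervals, shares have Clopper-Pearson intervals, and ratios have exact conditional intervals, all at 95% and for counting error only. A sum of 0 was set to 3 reads over the set and gives a bound. Genes with 1 CPM or more in 3 or more cells entered the background. No 2 cells had identical counts. The ratio and its interval were tried on simulated sums drawn with counting error alone. Those sums had no spread between cells, so the intervals were not tested under such spread. The 10 genes and all lists were chosen with earlier results of these data known. Named genes outside the 10 were the up to 3 of highest CPM of each list, the 3 most alike by rank correlation, and genes of the gate. A cell was named where it held most of a set's reads. Luminal cells 15 and 17, pregnancy cell 29 and adult basal cell 19 were named after their values were seen. Alternatives were TMM scaling (edgeR 4.0.16), equal weight per cell, other cell and class thresholds, other totals, other thinning, and title numbers taken apart. The top cell of each gene was also left out. A setting without the filter on low genes was counted too, although it cannot change a ratio. Leaving out stroma-marked cells or luminal cell 17 and restricting to progenitor-marked cells were chosen after seeing the data. Python 3.11.15, numpy 2.4.6, scipy 1.17.1, pandas 2.3.3 and R 4.3.3 were used.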

Additional observations from a re-analysis of the deposited data

Results flagged for a closer look

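Ly6a and Ly6c1 stood out because their stage difference had opposite signs in the basal and the luminal class. For Ly6a, the basal class of pregnancy was above the adult basal sort by a log2 ratio of at least 13.18 and the luminal class was below adult luminal cells by a log2 ratio of -2.09, so the ratios differed by at least 15.27. For Ly6c1 the ratios were at least 12.25 and -0.86, and they differed by at least 13.11. Neither difference was tested. Pregnancy cell 5, with all 7 fibroblast markers, held 81.9% and 74.6% of the reads of the 2 genes in the basal class. Without stroma-marked cells the basal class had 3 Ly6a reads and 84 Ly6c1 reads, against 0 in the adult sort, and all 84 lay in pregnancy cell 29, with 3 of 8 endothelial markers and 1 immune marker.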

How the results depend on the processing

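Of 182 alternative values of ratios past 2-fold, 172 stayed past it in the same direction, 9 did not and 1 was reversed. All counts of alternative ratios and of genes past 2-fold include a setting without the filter on low genes. That setting cannot change a ratio and repeats the main values by construction, so the counts overstate the agreement. The reversed one was Ly6a in the luminal class over adult luminal cells, at 5.88 when only progenitor-marked cells without stromal or immune markers were compared. The other 9 were Ly6e between the adult sorts with TMM scaling (-0.93), Cd44 there with equal weight per cell (0.79), Epcam in the basal class with the study's minimums (-0.52) and the 25th percentile (-0.47), and, in the luminal class, Cd9 with TMM scaling (-0.80), among progenitor-marked cells (-0.99) and among those without stromal or immune markers (-0.75), and Cd200 with equal weight per cell (-0.68) and among progenitor-marked cells (-0.15). Of 137 alternative values of ratios not past 2-fold, 127 stayed so and 10 passed it. Judged by the counting interval of the main value, or by the 2-fold call for bounds, 165 of all 319 alternative ratios moved. Of 150 alternative shares of cells with a read, 14 lay outside the main interval. The number of genes past 2-fold stayed within 1.5 times in all 34 alternatives (4 to 7). The median over the genes in the luminal class, -1.68, was -0.80 with TMM scaling, -0.73 with equal weight per cell, -1.05 with milk genes out of the total, -2.29 at the 5th percentile, -2.89 for title numbers up to 55 and -0.99 among progenitor-marked cells, and the cause was not tested beyond what each alternative removed. Of the values given beside these comparisons, leaving out stroma-marked cells reversed Ly6a (-7.64) and Ly6c1 (-0.24) between the pregnancy classes, Ly6a among progenitor-marked cells (5.88), Cd14 between the adult sorts (-6.39) and Psmb8 in the basal class (-1.003). No paired analysis was possible because no test was run and the title numbers only name cells. Depth of 50000 reads leaves absence in single cells open to counting error, and no spread between animals was measured.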
